A study of Mus musculus with 2 samples.

Results

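Arterial-type endothelial cells is the name used here for kidney endothelial cells that met a rule on transcripts of arterial genes. The cells were selected on their own measured transcripts, so those values describe them and are no finding. They were taken from droplet single-cell RNA sequencing of whole kidney, which counts transcripts by molecular barcodes (UMIs). A cell was a member when it held at least 1 UMI of 3 or more of 8 endothelial genes (Pecam1, Kdr, Cdh5, Emcn, Flt1, Egfl7, Esam, Tie1), no UMI of Ehd3, a gene of glomerular endothelium, and 1 or more UMIs of at least 2 of 6 arterial genes (Gja4, Gja5, Sox17, Stmn2, Hey1, Efnb2). Cells to which the authors' table gave a hybrid doublet score over 1 were dropped. The rule found 299 members among 14565 cells, 178 of 9071 in the control library and 121 of 5494 in the exposed one.

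Both groups were C57BL/6J mice at postnatal day 2, with no genetic change named, and the design text calls the exposed mice male. One group was the control and the other had been exposed to maternal diabetes (DM_EXP); the sources used here do not say how the diabetes was produced. Each group was a single library of pooled cells from 1 kidney, so a difference between libraries may be one between animals or preparations and no replicate check exists. No test was run, and the 95% intervals cover counting error only, which understates the error of genes concentrated in a few cells. Control members held 1014 to 20413 UMIs (median 3735) and exposed members 1453 to 15209 (median 3765). Other endothelial cells had medians of 2421 and 3196, and cells with no endothelial gene 3340.5 and 4138.5. In all, 14 barcodes occurred in both libraries, and none belonged to a member.

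Arterial identity in endothelium is set by Notch signalling, in which ligands such as Dll4 and Jag1 on one cell activate receptors on its neighbour, and by SoxF transcription factors such as Sox17. Arteries carry connexins (Gja4, Gja5) that couple endothelial cells to each other and to smooth muscle, the ephrin ligand Efnb2, and a wall rich in elastic fibres. In the kidney, renal arteries branch to arterioles, which feed the glomerular capillaries and, in the medulla, the descending vasa recta, vessels known for the water channel Aqp1 and the urea transporter Slc14a1.

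The promoters of 4 genes that marked the members are shown because these genes differed most between members or define them. Each is the run of 250 bases before the RefSeq start site (GRCm38.p6, gene strand, 5′ to 3′). Capitals mark every ACAAT, the core that Sox factors bind, and every TGGGAA, the core that the Notch partner RBPJ binds, on either strand (ATTGT and TTCCCA on the other). The positions are chr6:117168285-117168534, plus strand for Cxcl12, chr12:101819120-101819369, minus strand for the first of 2 start sites of Fbln5, chr2:137116521-137116770, minus strand for Jag1, and chr4:127314040-127314289, minus strand for Gja4.
Cxcl12 promoter: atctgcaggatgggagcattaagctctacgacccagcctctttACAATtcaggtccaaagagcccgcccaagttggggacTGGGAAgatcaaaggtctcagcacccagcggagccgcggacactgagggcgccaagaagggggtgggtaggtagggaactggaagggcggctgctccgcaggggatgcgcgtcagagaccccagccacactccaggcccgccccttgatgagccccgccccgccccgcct
Fbln5 promoter: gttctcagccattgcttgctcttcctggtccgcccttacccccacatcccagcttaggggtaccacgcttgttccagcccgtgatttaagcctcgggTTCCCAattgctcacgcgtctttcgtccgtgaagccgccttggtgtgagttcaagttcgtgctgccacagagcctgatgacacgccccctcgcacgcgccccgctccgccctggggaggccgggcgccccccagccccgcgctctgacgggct
Jag1 promoter: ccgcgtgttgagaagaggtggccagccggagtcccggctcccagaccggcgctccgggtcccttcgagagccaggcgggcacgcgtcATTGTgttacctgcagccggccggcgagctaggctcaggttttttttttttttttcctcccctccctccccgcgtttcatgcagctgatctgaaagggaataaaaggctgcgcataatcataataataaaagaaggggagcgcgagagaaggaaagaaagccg
Gja4 promoter: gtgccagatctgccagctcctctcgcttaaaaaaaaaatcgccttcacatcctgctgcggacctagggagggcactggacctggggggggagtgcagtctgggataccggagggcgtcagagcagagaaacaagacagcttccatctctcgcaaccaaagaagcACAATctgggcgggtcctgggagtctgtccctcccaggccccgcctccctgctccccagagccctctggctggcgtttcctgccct

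Cxcl12 held 1 match of each kind, Fbln5 1 TGGGAA match, and Jag1 and Gja4 1 ACAAT match each. Of the 57 genes that were over 2-fold higher in members than in other endothelium, 48 had a promoter in the RefSeq table. ACAAT occurred in 12 of them (25%), against 1099 of 5334 genes compared (20.6%), and TGGGAA in 11 (22.9%), against 1203 of 5334 (22.6%). Over all 27025 genes of the promoter table the shares were 30.9% and 24.1%. A match is a description of the sequence and not a binding site.

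Members made up a like share of each library. They were 1.96% of control cells (95% Clopper-Pearson interval 1.69 to 2.27%) and 2.2% of exposed cells (1.83 to 2.63%), a difference of 0.24 percentage points (Newcombe interval −0.23 to 0.739). Of the 674 and 464 endothelial cells, members were 26.4% (23.1 to 29.9%) and 26.1% (22.1 to 30.3%), and the exposed share differed by −0.332 points (−5.46 to 4.92). The hybrid score removed 34 and 19 cells that otherwise met the rule, and Ehd3 kept out 37 and 25. Among cells with no endothelial gene, 2.14% (145 of 6766) and 2.79% (111 of 3972) held at least 2 of the arterial genes. Hey1 was held by 10.7% and 13.7% of these cells and Efnb2 by 9.81% and 10.6%, while Gja4 was held by 0.281% and 0.277%.

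The rule set the levels of the arterial genes, which are therefore given as a description. Sox17 was held by 92.1% of control and 95% of exposed members, and Efnb2 by 78.1% and 79.3%. Gja4, the connexin 37 gene, was held by 50.6% and 43.8%, Stmn2, which encodes a microtubule regulator, by 24.2% and 16.5%, and Hey1, a Notch target, by 18% and 22.3%. Gja5, the connexin 40 gene, was held by 8.99% and 9.09%. Among the other endothelial cells, Sox17 was held by 34.7% and 32.7% and Efnb2 by 19.4% and 24.2%. Most members sat at the limit of the rule: 101 (56.7%) and 71 (58.7%) held exactly 2 of the 6 genes, and 4 cells in each library held all 6. The commonest pair was Sox17 with Efnb2 alone, in 66 control (37.1%) and 52 exposed members (43.0%). The other 112 and 69 held Gja4, Gja5, Stmn2 or Hey1. Just outside the limit, cells with 1 arterial gene (200 and 133) had Cxcl12 at 43.1 and 17.6 CPM (UMIs scaled to a total of 1000000), members with exactly 2 had 132 and 142 CPM, and those with 3 or more had 1850 and 1059 CPM.

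Arterial markers outside the rule were high in 1 of these sets of members and near the level of the other endothelium in the other. Cldn5, the claudin named among the label's markers and the only one not in the rule, was a general endothelial gene here. It stood at 1264 (control) and 1377 CPM (exposed) in members and at 1078 and 1112 CPM in the other endothelial cells, a log2 ratio of 0.23 and 0.31. A list of arterial markers outside the rule separated the sets. Against the other endothelium, the median log2 ratio of this list was 2.12 and 1.83 in members with Gja4, Gja5, Stmn2 or Hey1, and 0.09 and 0.11 in members with only Sox17 and Efnb2. With the second set alone as members, 2 of 6486 genes (0.0308%) were over 2-fold higher than in the other endothelium in both libraries and 24 (0.37%) over 2-fold lower. With the first set alone, 87 of 6734 genes (1.29%) were higher and 42 (0.624%) lower. The sets were chosen after these values were seen.

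**Figure D1:**
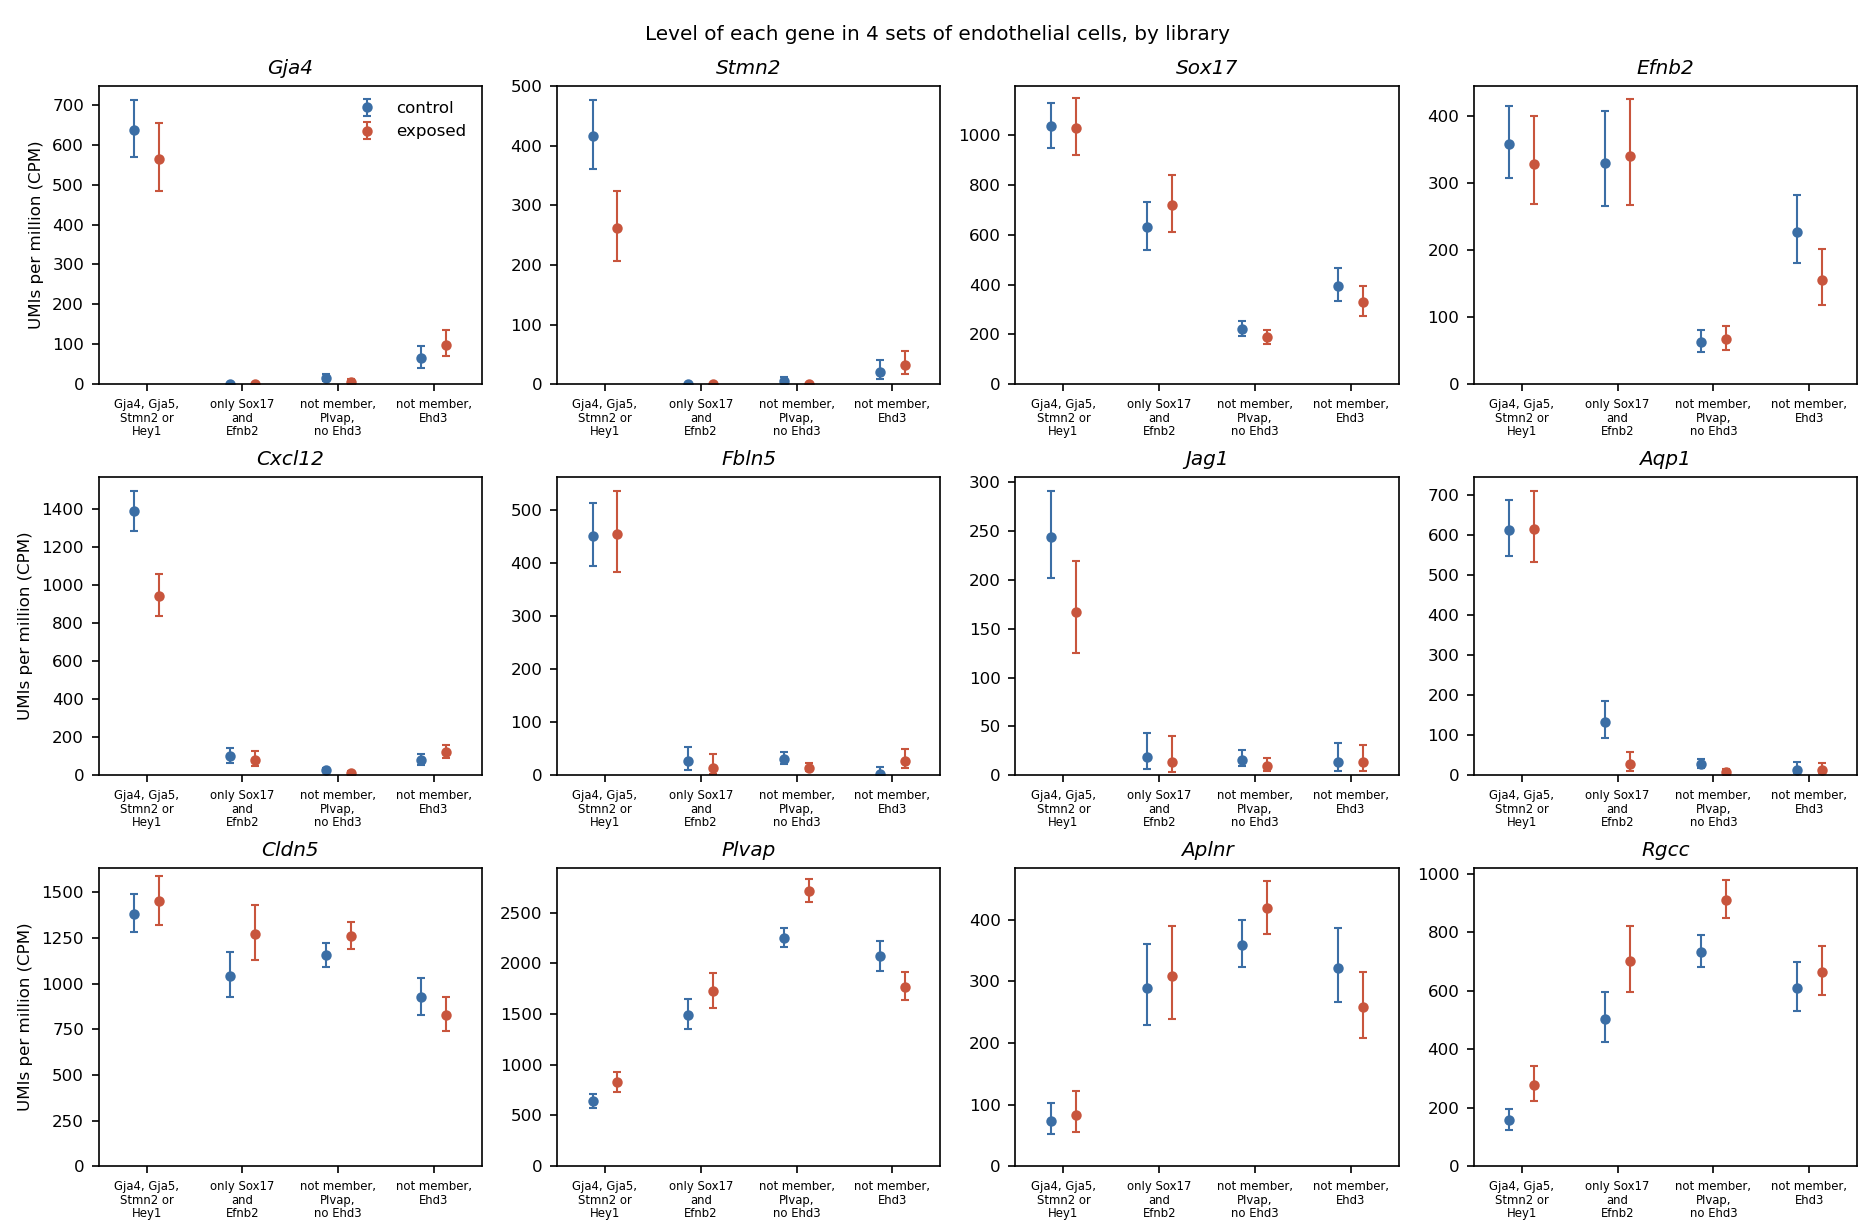
Levels (CPM on a linear axis from 0, 95% Poisson interval) of 12 genes in 4 sets of endothelial cells: members with Gja4, Gja5, Stmn2 or Hey1, members with only Sox17 and Efnb2, and non-members with Plvap or with Ehd3; blue is the control and red the exposed library. Cxcl12, Fbln5, Jag1 and Aqp1 are highest in the first set, while Plvap, Aplnr and Rgcc are lowest there. Gja4 and Stmn2 are absent from the second set by construction, and the non-members with Plvap were chosen for holding it.

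Between the 2 sets, 56 of 4012 genes (1.4%) were over 2-fold higher with Gja4, Gja5, Stmn2 or Hey1 in both libraries, and 8 (0.199%) were over 2-fold lower. By the smaller ratio of the 2 libraries, Fbln5, Cxcl12, Eln, Fbln2 and Jag1 stood highest. Fbln5, fibulin 5, an elastic fibre protein, was at 452 against 26.0 CPM in the control and 455 against 13.6 CPM in the exposed library. Cxcl12, a chemokine, was at 1389 against 100 and 945 against 81.5 CPM. Eln, elastin itself, was at 240 against 22.3 and 345 against 22.6 CPM, but 1 exposed cell held 67 of the 112 exposed UMIs of members. Fbln2, another fibulin, was at 268 against 26.0 and 239 against 18.1 CPM, and Jag1, a Notch ligand, at 244 against 18.6 and 168 against 13.6 CPM. Because the genes were ranked by the smaller ratio, the first set stood above the second in both libraries by that choice. Mgp, an inhibitor of matrix calcification, was at 116 against 3.71 and 87.1 against 4.53 CPM, but 5 cells held 62.1% of its UMIs.

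The 8 genes over 2-fold lower in this set were Aplnr, Rgcc, Igf1, Spred1, Plvap, Egln3, Ctla2a and Pex6. Plvap, the diaphragm protein of fenestrated capillaries, was at 642 against 1492 CPM in the control and 825 against 1725 CPM in exposed cells. It was held by 71.3% and 76.9% of all members, and by 88.3% and 93.3% of the other endothelial cells. Aplnr, the apelin receptor, was at 74.0 against 290 and 83.8 against 308 CPM. Rgcc, a cell cycle regulator found in capillaries, was at 158 against 505 and 277 against 702 CPM. Igf1 was at 136 against 316 and 171 against 394 CPM. The levels of Plvap, Aplnr and Rgcc in members with only Sox17 and Efnb2 lay between those of the first set and those of non-members with Plvap, where Plvap was at 2251 and 2717 CPM. Each of those non-members was chosen for holding Plvap and members were not, so for Plvap that order follows from the choice. Median depth was 3307 and 3523 UMIs per cell in the first set and 3858 and 3846 in the second, so the first set was the shallower one.

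Members as a whole were set beside the 496 and 343 other endothelial cells for 6911 genes without the rule genes. In both libraries 57 genes were over 2-fold higher in members (0.825%) and 16 over 2-fold lower (0.232%), 73 in all (1.06%). Cxcl12 (chr6:117168535-117181367, protein coding, GRCm38) stood highest, at 938 against 42.6 CPM in the control and 586 against 41.9 CPM in the exposed library, ratios of 22.0 (17.0 to 28.9) and 14.0 (10.5 to 18.9). It was held by 41.0% and 33.9% of members and by 6.05% and 2.04% of the other endothelial cells. Thinning to 2000 UMIs, which left out the shallower cells and kept 142 and 101 members and 294 and 279 other endothelial cells, gave 33.8% and 27.7%, against 4.08% and 1.08%. Cxcl12 is not confined to endothelium, since 17.0% and 21.6% of the cells with no endothelial gene held it.

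Of 26 genes of vessel wall matrix and basement membrane compared, 14 were higher and 4 lower in both libraries. Over all genes these shares were 32.6% and 27.6%. Past 2-fold were 6 higher and 1 lower, against 0.825% and 0.232% of all genes. Fbln5 (chr12:101746565-101819055) was at 303 against 23 and 271 against 16.5 CPM. Egfl8, a secreted protein with EGF repeats, was at 161 against 6.09 and 128 against 10.5 CPM. Fbln2 was at 183 against 23.7 and 147 against 25.5 CPM, and Col18a1, the source of endostatin, was at 294 against 69.7 and 249 against 55.4 CPM. Among ligands, Tgfb2 was at 233 against 8.80 and 121 against 9.73 CPM. Jag1 (chr2:137081456-137116644) was at 165 against 15.6 and 104 against 10.5 CPM. Vegfc, the growth factor for lymphatic vessels, was at 70.2 against 3.38 and 67.8 against 5.24 CPM. Sema3g, a semaphorin, was at 96.2 against 18.3 and 60.3 against 8.98 CPM. These genes were named for high ratios in both libraries, so the same order in each follows from that choice. All their intervals excluded equality, which the choice also favours.

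The remaining genes of the leading 15 were Aqp1, Tspan8, S100a4, Hpgd, Nebl and Car7. S100a4, a calcium-binding protein, was at 691 against 122 and 475 against 38.9 CPM. Aqp1 (chr6:55336432-55348555) was at 446 against 50.8 and 371 against 17.2 CPM. Tspan8, a tetraspanin, was at 152 against 11.5 and 81.0 against 4.49 CPM, and Hpgd, which degrades prostaglandins, was at 84.5 against 6.77 and 62.1 against 3.74 CPM. Nebl, an actin-binding protein, had log2 ratios of 2.36 and 2.39, and Car7, a carbonic anhydrase, 2.08 and 1.93.

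**Figure D2:**
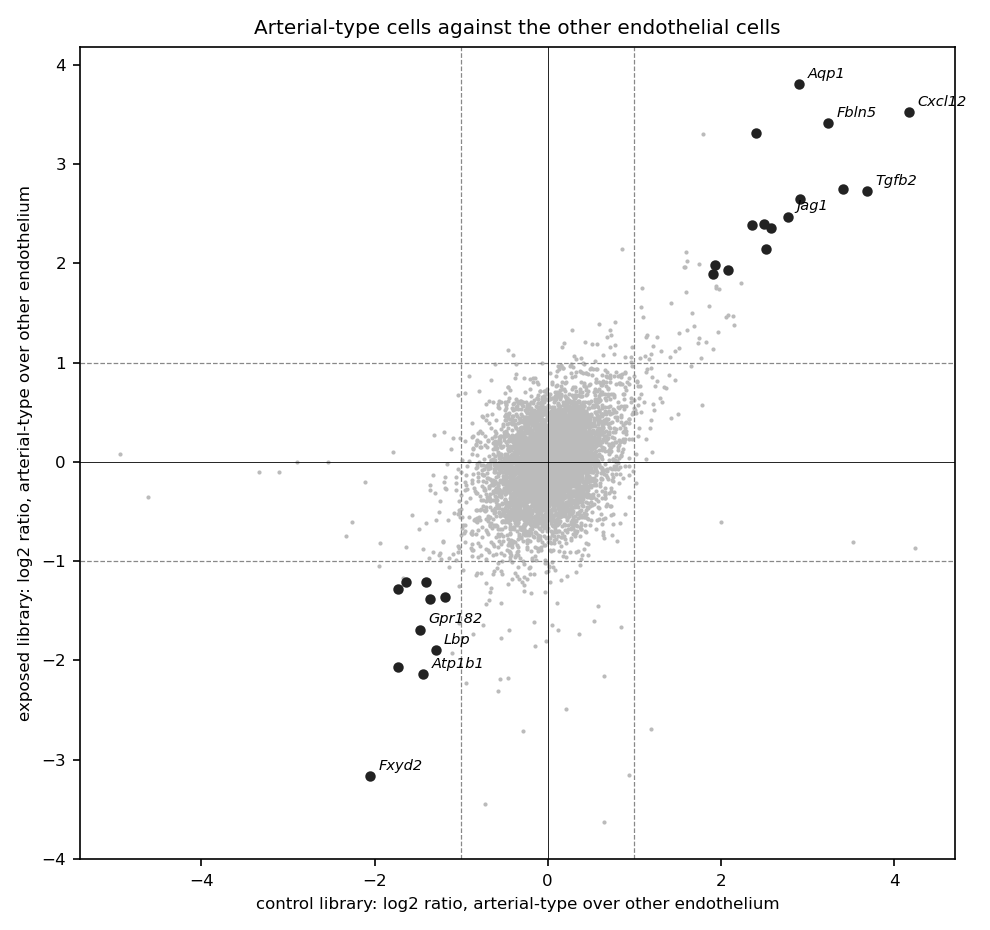
Log2 ratio (10 CPM added) of arterial-type over other endothelial cells for 6911 genes, in the control library (x axis) and the exposed library (y axis); dashed lines mark 2-fold and black points the 25 named genes. Cxcl12, Fbln5 and Aqp1 stand at the upper right in both libraries and Fxyd2 at the lower left.

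Of the arterial list, 27 genes were listed in both libraries and 23 passed the filter of 50 UMIs. Of these, 21 were higher in members in both libraries and 13 past 2-fold, with medians of 1.74 and 1.25 against 0.03 and 0.00 over all genes compared. Over all genes 32.6% were higher and 27.6% lower in both libraries. The other genes of the list were Plac8, lower at 20.8 against 52.8 and 26.4 against 76.4 CPM, and Igfbp3, at 398 against 431 and 591 against 466 CPM, in opposite directions. Slc6a6, the taurine transporter, was at 486 against 130 and 258 against 106 CPM, and Mecom, a transcription factor, at 247 against 56.9 and 153 against 38.2 CPM. Of 11 venous and capillary markers, 8 were lower and 1 was higher in both (medians −0.72 and −0.57), against 27.6% and 32.6% of all genes; Nr2f2, the transcription factor of venous identity, was at 78.0 against 135 and 56.5 against 169 CPM. Fabp4, a fatty acid carrier of capillaries, went the other way, at 11749 against 11137 and 12972 against 10469.6 CPM.

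Of 17 Notch pathway genes compared, 9 were higher and 2 lower in both libraries, against 32.6% and 27.6% of all genes. The medians were 0.21 and 0.21, and the ligands Jag1 and Jag2 were the 2 past 2-fold. Both are also in the arterial list. The ligand Dll4 was at 76.7 against 63.0 and 73.4 against 46.4 CPM. Jag2 was at 107 against 21.0 and 54.6 against 19.5 CPM. The receptor Notch4 was at 97.5 against 71.1 and 90.4 against 44.2 CPM, and Rbpj, the DNA-binding partner of Notch, at 22.1 against 33.8 and 35.8 against 22.5 CPM, in opposite directions. Of 12 flow-responsive genes, 8 were higher and 4 lower in both, against 32.6% and 27.6% of all genes, and 3 were past 2-fold higher; Klf4, a shear-induced factor, was at 218 against 58.2 and 147 against 56.1 CPM, while Tek, the angiopoietin receptor, was at 118 against 208 and 122 against 214 CPM. Of 36 S phase genes, 31 were lower in members in both libraries, against 27.6% of all genes, and none was higher in both (medians −0.66 and −0.43), although none passed 2-fold. A UMI of Mki67, Top2a, Cenpf, Ube2c, Birc5 or Ccnb2 was held by 27.5% (21.1 to 34.7%) and 21.5% (14.5 to 29.9%) of members and by 28.6% and 34.1% of other endothelial cells; in cells of at least 2000 UMIs thinned to that number, the shares were 26.1% and 19.8% against 35.0% and 34.1%.

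Among the 10 named lower genes, Fxyd2, a subunit of the tubule's sodium pump, was at 87.1 against 393 and 26.4 against 317 CPM. Atp1b1, another subunit of that pump, was at 29.9 against 98.2 and 7.53 against 67.4 CPM, and Car2, a carbonic anhydrase, at 6.50 against 44.7 and 1.88 against 39.7 CPM. Summed proximal tubule markers, Fxyd2 included, were at 213 and 60.3 CPM in members against 377 and 543 CPM over all endothelial cells. Of the member sums, Fxyd2 alone gave 87.1 and 26.4 CPM. Against the other endothelium, the median log2 ratio of the 6 listed genes compared was 0.25 (control) and −2.50 (exposed). Summed distal markers were at 197 and 52.7 against 362 and 192 CPM. The part of these transcripts in the result was not tested. The remaining genes were of other kinds. Gpr182, a receptor of sinusoidal and lymphatic endothelium, was at 15.6 against 60.9 and 18.8 against 83.1 CPM. Bgn, biglycan, was at 36.4 against 144 and 64.0 against 170 CPM, and Ramp3, a partner of the adrenomedullin receptor, at 49.4 against 175 and 84.7 against 210 CPM. Lbp, Fkbp11, Pdia5 and Pf4 completed the 10, with log2 ratios between −1.89 and −1.19.

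A set of members held Aqp1, the water channel of the descending vasa recta. They numbered 67 of 178 (37.6%) and 34 of 121 (28.1%), and 61 and 31 of them also held Gja4, Gja5, Stmn2 or Hey1. Slc14a1, the urea transporter of the same vessels, was held by 11 and 5 members, of which 8 and 5 held Aqp1. Members with Aqp1 had Cxcl12 at 1934 CPM in the control and 1470 CPM in exposed cells, against 231 and 236 CPM in members without. Hpgd was almost confined to them, with 62 of 65 and 33 of 33 UMIs. S100a4 was at 1230 against 309 and 1270 against 160 CPM, Stmn2 at 560 against 64.4 and 459 against 31.5 CPM, and Plvap at 410 against 1315 and 572 against 1448 CPM. Median depth over the shared genes was 3754 and 3852 UMIs with Aqp1 and 3619 and 3097 without. The 5 cells with most Aqp1 held 49.0% and 62.4% of its UMIs in members. This split was chosen after the values were seen.

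The comparison between libraries asked how members of the exposed library differed from those of the control. Of 4012 genes with at least 50 UMIs, 135 were over 1.5-fold higher (3.36%) and 129 over 1.5-fold lower (3.22%) in the exposed library, 264 in all (6.58%), and the median log2 ratio was 0.02. The rule genes, as a description, were close to equal for Sox17 (895 and 900 CPM) and Efnb2 (348 and 333 CPM). Gja4 was at 414 CPM in the control and 330 CPM in exposed cells, and Stmn2 at 270 and 153 CPM. Gja5 was at 33.8 and 58.4 CPM.

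Arterial genes outside the rule were mostly lower in the exposed members. Of 22 compared, 18 were lower, against 47.2% of all genes, and 6 were past 1.5-fold; the median log2 ratio was −0.42. Cxcl12 was at 938 and 586 CPM, a ratio of 0.624 (0.545 to 0.714). Slc6a6 was at 486 and 258 CPM, a ratio of 0.531 (0.433 to 0.647), and Mecom at 247 and 153 CPM, a ratio of 0.618 (0.470 to 0.806). Of the Notch ligands, Jag1 was at 165 and 104 CPM (0.628, 0.449 to 0.868) and Jag2 at 107 and 54.6 CPM (0.513, 0.323 to 0.791). The genes higher in the exposed library were Edn1, which encodes the vasoconstrictor endothelin 1, at 36.4 and 64.0 CPM (1.76, 1.04 to 3.01), Igfbp3, which binds insulin-like growth factors, at 398 and 591 CPM (1.49, 1.27 to 1.75), Eln at 164 and 211 CPM (1.29, 0.990 to 1.68) and Cldn5 (1.09, 0.988 to 1.20). For Eln the log2 ratio was 0.35 with all members and −0.05 once its 5 top cells were left out. The difference was smaller in other settings. With members under 2000 UMIs left out and the remaining 142 and 101 thinned to that number, 11 of the same 22 genes were lower and the median was −0.07; without the 5 cells with most UMIs of each gene, 14 were lower and the median was −0.23. In the other endothelial cells 16 of the same 22 genes were lower, with a median of −0.13. Over all 4012 genes, 1935 were lower thinned, 1413 without the top cells and 1647 in the other endothelial cells. The exposed library also had the smaller share of members with Gja4, Gja5, Stmn2 or Hey1, 57.0% (47.7 to 66.0%) against 62.9% (55.4 to 70.0%). Within those members 15 of 22 genes were lower, with a median of −0.38, against 1288 of 2780 over all genes.

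G2/M phase genes were higher in the exposed members. Of 23 compared, 21 were higher, against 52.8% of all genes, and 8 were past 1.5-fold; the median was 0.44. In the other endothelial cells 17 of the same 23 were higher, with a median of 0.17, against 2365 of 4012 over all genes. The share of members with a UMI of 1 of the 6 cycling genes ran the other way, at 27.5% in control and 21.5% in exposed members, with overlapping intervals. Cdc20, an activator of the anaphase-promoting complex, was at 35.1 and 119 CPM (ratio 3.38, 2.12 to 5.52), and Ccnb2, a mitotic cyclin, at 36.4 and 121 CPM (3.31, 2.09 to 5.37). Cenpa, the centromeric histone, was at 74.1 and 200 CPM (2.70, 1.94 to 3.79), and Ube2c, a mitotic ubiquitin conjugase, at 152 and 354 CPM (2.33, 1.84 to 2.96). Few cells held many of these UMIs. The 5 cells with most UMIs of each held 46.7% (Cdc20), 42.4% (Ccnb2), 35.0% (Cenpa) and 45.2% (Ube2c) of them, and without those cells the log2 ratios were 0.24, 0.38, 0.76 and 0.32, where the median over all genes was itself 0.10. Cdc20 was held by 18 of 178 control and 14 of 121 exposed members, Ube2c by 27 and 16, and Ccnb2 by 15 and 16, shares of 10.1% and 11.6%, 15.2% and 13.2%, and 8.43% and 13.2%. Over the list the median was 0.32 without those cells and 0.11 in the 142 and 101 members thinned to 2000 UMIs, when 14 of the 23 were higher. Thinned, 2077 of all 4012 genes were higher. S phase genes did not share the direction over all members, with 6 of 16 higher, against 52.8% of all genes, and a median of −0.08. In the other endothelial cells 12 of the same 16 were higher, with a median of 0.14, against 2365 of 4012 over all genes. The S phase median was 0.26 in members with Gja4, Gja5, Stmn2 or Hey1 (7 genes compared). It was −0.40 in members with only Sox17 and Efnb2 (3 genes) and −0.36 thinned over the same 16.

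**Figure D3:**
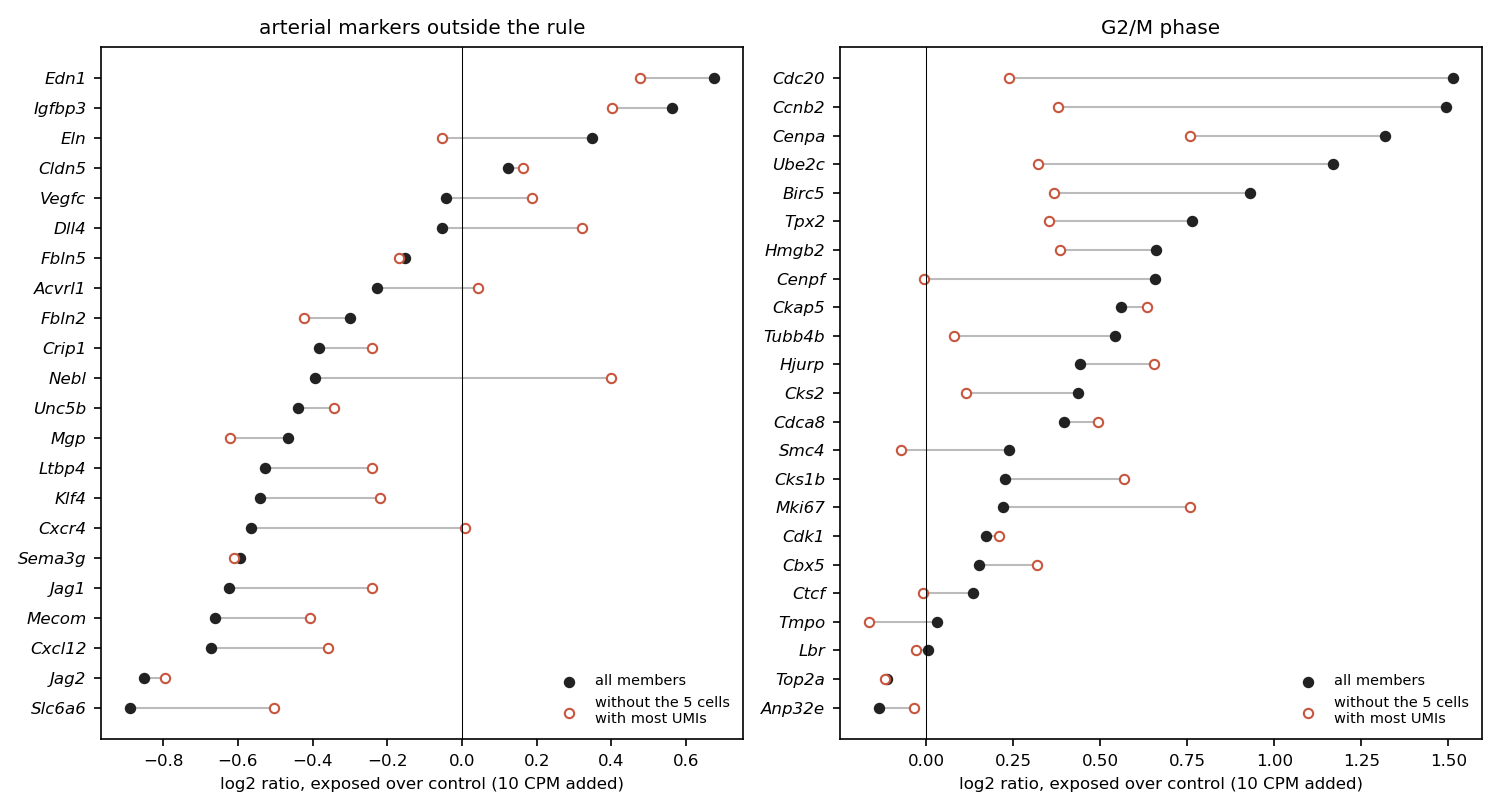
Log2 ratio, exposed over control (10 CPM added), of the 22 arterial markers outside the rule (left) and the 23 G2/M phase genes (right) in members; black points use all members and open points leave out the 5 member cells with most UMIs of the gene. Without those cells Cdc20, Ccnb2 and Ube2c move to between 0.24 and 0.38, and Nebl, Dll4 and Vegfc move above 0.

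Interferon and MHC class I genes were higher by a median of 0.32, 9 of 14 in that direction, against 52.8% of all genes, and 3 past 1.5-fold; the count is thus near that of all genes. Isg15, a ubiquitin-like protein induced by interferon, was at 41.6 and 145 CPM (3.49, 2.28 to 5.44) and was held by 20 of 178 and 34 of 121 members. Psmb8, an immunoproteasome subunit, was at 68.9 and 121 CPM (1.75, 1.20 to 2.57), H2-K1, a class I heavy chain, at 52.0 and 88.5 CPM (1.70, 1.09 to 2.66), and Bst2, tetherin, at 487 and 725 CPM (1.49, 1.29 to 1.72). Ly6a and Ly6c1, surface proteins of the Ly6 family, were lower, at 1029 and 782 CPM and at 700 and 561 CPM. Without the 5 cells with most UMIs of each gene 11 of 14 were higher (median 0.27), and thinned 10 of 14 were (0.31). Over all 4012 genes 2597 were higher without those cells (median 0.10) and 2077 thinned (0.02). The same 14 genes had a median of 0.35 in the other endothelial cells, 11 of 14 higher. There 2365 of all 4012 genes were higher, with a median of 0.05.

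All 12 mitochondrially encoded genes compared were lower in the exposed members, against 47.2% of all genes, by a median of −0.35. They made up 7.35% of the UMIs of control members and 5.83% of those of exposed members; mt-Nd1, a subunit of respiratory complex I, was at 2119 and 1418 CPM, a ratio of 0.669 (0.613 to 0.730). The other endothelial cells showed a median of −0.62 for the same genes. Glycolytic genes went the other way, with 8 of 10 higher, against 52.8% of all genes. Their median was 0.23, against 0.21 in the other endothelial cells. Pkm, pyruvate kinase, was at 383 and 627 CPM (1.64, 1.39 to 1.92), and Ldha, lactate dehydrogenase, at 395 and 571 CPM (1.44, 1.23 to 1.70). Of 11 Notch pathway genes, 10 were lower, against 47.2% of all genes, with a median of −0.12. Jag2, Jag1 and Notch1 (148 and 104 CPM) led them. Of the Notch genes, Jag2, Jag1 and Dll4 are also in the arterial list, so the same values count in both. In thinned cells 8 of the 11 were lower, and without the top cells 7 were. In the other endothelial cells 7 of the 11 were lower, with a median of −0.11. Over all 4012 genes, 1935 were lower thinned, 1413 without the top cells and 1647 in the other endothelial cells. Of 25 matrix genes, 13 were higher and 12 lower, near the 52.8% and 47.2% of all genes. Lama4, a laminin chain, was at 62.4 and 121 CPM (1.93, 1.31 to 2.87). Vwa1, a basement membrane protein, was at 39.0 and 82.9 CPM (2.13, 1.31 to 3.5). Ltbp4, which binds latent TGF beta, was lower, at 262 and 179 CPM (0.682, 0.528 to 0.874).

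Outside these groups, the highest of the 12 named higher genes were Gmfg, an actin regulator of blood cells, at 39.0 and 107 CPM (2.75, 1.74 to 4.44), Phb, prohibitin, at 32.5 and 81.0 CPM, and the zinc finger gene Zfp467 at 29.9 and 75.3 CPM. The gene listed as yam1 was at 878 and 1863 CPM (2.12, 1.92 to 2.34). Ccnb1, a mitotic cyclin, Apobec3, an antiviral deaminase, and Gpx7, a peroxidase, had ratios of 2.48, 2.42 and 2.37. For Ccnb1, 5 cells held 50.8% of the UMIs, and its log2 ratio was 1.08 with all members and 0.56 without those cells.

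**Figure D4:**
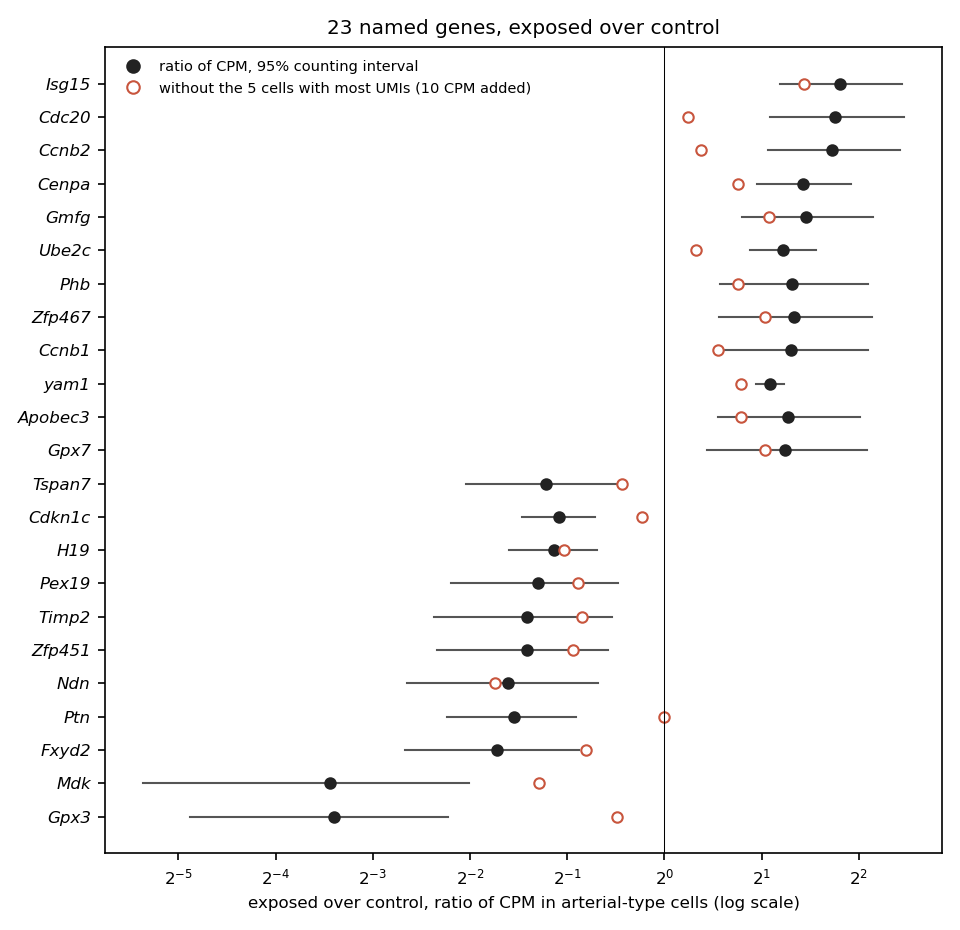
Exposed over control ratio of CPM in members (log axis) for the 12 highest and 11 of the 12 lowest named genes; black points with lines are ratios with 95% exact intervals for counting error, and open points (10 CPM added) leave out the 5 cells with most UMIs of the gene. Cdc20, Ccnb2, Ube2c, Ptn and Gpx3 lie much nearer to 1 without those cells, while Isg15, Gmfg, Zfp467, H19 and Ndn stay within their intervals.

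In some of the lowest named genes 1 control cell held much of the count. Gpx3, a secreted peroxidase of the tubule, was at 120 and 11.3 CPM, but 79 of its 92 control UMIs were in 1 cell. Ptn, pleiotrophin, was at 138 and 47.1 CPM, with 28 of 106 control UMIs in 1 cell. Without the 5 top cells the log2 ratios of Gpx3 and Ptn were −0.49 and −0.00. Mdk, midkine, was at 81.9 and 7.53 CPM and Fxyd2 at 87.1 and 26.4 CPM. More evenly spread were H19, an imprinted noncoding RNA of growing tissue, at 227 and 104 CPM (0.456, 0.330 to 0.620), and Ndn, an imprinted growth suppressor, at 68.9 and 22.6 CPM (0.328, 0.160 to 0.622). Cdkn1c, an imprinted cell cycle inhibitor that podocytes express, was at 320 and 151 CPM (0.471, 0.362 to 0.609), and its log2 ratio was −1.04 with all cells and −0.23 without the top cells. Timp2, a protease inhibitor, Zfp451, Pex19 and Tspan7 had ratios between 0.375 and 0.430.

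Most summed marker lists of other cell types were lower in exposed members, but a few genes made up much of some sums. The podocyte sum includes Podxl (379 and 339 CPM) and Cdkn1c (320 and 151 CPM). The nephron progenitor sum includes Jag1 (165 and 104 CPM) and the stroma sum Mgp (76.7 and 52.7 CPM), both also in the arterial list. The proximal tubule sum includes Fxyd2 (87.1 and 26.4 CPM), itself a named lower gene, as is Cdkn1c. Summed podocyte markers were at 963 CPM in control and 603 CPM in exposed members, with 0 and 2 of 11 at no UMI. Stroma markers were at 192 and 75.3 CPM (1 and 6 of 12 at no UMI), nephron progenitor markers at 308 and 185 CPM (0 and 7 of 14), proximal tubule markers at 213 and 60.3 CPM (1 and 4 of 12), and distal markers at 197 and 52.7 CPM (1 and 5 of 15). Leukocyte markers were at 346 and 7.53 CPM (2 and 9 of 12): 1 control member held all 138 UMIs of S100a9 and 86 of 87 of S100a8, and no exposed member held either. Exposed members were fewer (121 against 178) and held fewer UMIs of the shared genes in all (530997 against 769623). The counts of markers at no UMI are therefore not comparable between libraries. Mural markers were alike, at 356 and 373 CPM, of which Mcam gave 238 and 262 CPM. The part of these transcripts in the lower named genes was not tested. With cells that held 2 or more defining markers of podocytes, mural cells, stroma or nephron progenitors left out (157 and 112 members remained), the median of the arterial list was −0.62.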

How the data were processed

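UMI counts per gene and cell were deposited by the authors as whole numbers, with no normalization; the log2 values that the authors deposited were only set beside the sums. The authors' table of cells gives, per the file headers, the percent of UMIs from the mitochondrial genome and a hybrid doublet score per cell. Libraries were made with the 10x Genomics 3' kit, version 2 chemistry, per the labels' protocols, and Cell Ranger 2.2.0 and mm10 (GRCm38) are named in the submitters' processing notes. The sources used here do not state how the authors chose cells and genes.

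The 8930 genes listed for both libraries were used, of which 8612 matched a gene symbol. Members were selected by the stated rule, and the members and gene lists were chosen with earlier results of these data known. UMIs were summed over members per gene and library and scaled to the total (CPM); log2 ratios have 10 CPM added, which understates the change of low genes, and genes needed 50 UMIs over both libraries. With 1 library per group no test was possible. Shares have Clopper-Pearson, differences of shares Newcombe, levels exact Poisson and ratios exact conditional binomial 95% intervals, computed with SciPy 1.17.1 on Python 3.11.15; the code was checked on simulated data. Named genes were the 12 highest and 12 lowest exposed over control ratios whose interval excluded 1 and whose direction held without the 5 members with most UMIs, and the 15 highest and 10 lowest against other endothelium by the smaller of the 2 libraries' ratios. From each gene list described, the genes with the largest changes and the most UMIs were named. Some lists share genes, so their counts are not independent. The arterial list shares Jag1, Jag2 and Dll4 with the Notch list. It also shares Fbln5, Fbln2, Eln, Mgp and Ltbp4 with the matrix list, and Klf4 and Edn1 with the flow-responsive list. Further genes named, Plac8, Rbpj, Tek, Notch4 and Dll4 among them, were chosen after their values were seen. Gene coordinates are from GENCODE on GRCm38 and promoters from RefSeq on GRCm38.p6. One of the 12 lowest genes so chosen is not reported here.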

Additional observations from a re-analysis of the deposited data

How the results depend on the processing

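No paired analysis was possible because each group is 1 library. For the 24 named genes compared between libraries, 333 of 408 recomputed ratios stayed within the counting interval, 72 left it and 3 changed sign: Gpx3 was at 0.48 with at least 3 arterial genes required, and Cdkn1c at 0.26 and Tspan7 at 0.19 in members with only Sox17 and Efnb2. For the 25 genes compared with other endothelium, 522 of 750 stayed within, 224 left and 4 changed sign, all in the exposed library for members with only Sox17 and Efnb2: Fbln5 (−0.17), Egfl8 (−0.50), Hpgd (−0.46) and Fbln2 (−0.33). For 6 of the lists, 69 of 101 recomputed medians counted as the same, 32 as moved and none as reversed. Not every list kept its sign. The S phase median was −0.08 in all members and 0.26 in members with Gja4, Gja5, Stmn2 or Hey1. The vessel wall matrix median was 0.14 in all members and −0.05 with at least 3 arterial genes required.

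The share of all cells was 2.34% in the control with hybrid cells kept, 0.849% and 0.910% (control, exposed) with 3 arterial genes required, 1.21% and 1.31% with cells thinned to 2000 UMIs and shallower cells left out, 2.37% and 2.66% with Ehd3 ignored, and 3.03% and 3.8% without cells holding markers of other types, which also removes cells from the total. The share of endothelial cells was 11.4% and 10.8% with 3 arterial genes, 22.3% and 17.7% thinned, and 31.9% and 31.5% with Ehd3 ignored. Genes over 1.5-fold apart between libraries numbered 264; there were 679 with a minimum of 20 UMIs, 87 with 100, 130 thinned and 143 in members with only Sox17 and Efnb2. Genes over 2-fold apart from other endothelium numbered 73; there were 129 with 1 CPM added, 148 with 3 arterial genes, 129 in members with Gja4, Gja5, Stmn2 or Hey1, 26 in members with only Sox17 and Efnb2, and 112 against endothelium without arterial genes. The cause of these changes was not tested, except that stricter filters leave fewer genes or cells.

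The arterial list's median, exposed over control, was −0.19 as a mean over cells, −0.058 thinned (14 genes pass the filter) and −0.065 thinned over the same 22, −0.58 with hybrid cells kept, −0.62 without cells holding other markers, −0.27 in members with only Sox17 and Efnb2 and −0.23 without each gene's 5 top cells. The G2/M median was 0.28 as a mean over cells, 0.33 thinned and 0.11 thinned over the same genes, 1.21 with 3 arterial genes, 0.75 in members with Gja4, Gja5, Stmn2 or Hey1, 0.050 in those with only Sox17 and Efnb2, 0.31 in members without a cycling gene and 0.32 without the 5 top cells. The settings did not compare the same number of genes. For G2/M it was 23 in all members, 8 thinned, 11 with 3 arterial genes and 6 without a cycling gene. It was 15 with Gja4, Gja5, Stmn2 or Hey1 and 13 with only Sox17 and Efnb2. The arterial median of −0.27 rests on 5 genes. The subsets of members, the other endothelium without arterial genes, the lists without top cells and the thinning over the same genes were chosen after seeing the data. With 121 to 178 members and 1 library per group, differences of a few UMIs per gene are not detectable, and spread between animals is unknown.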
